A study of Mus musculus with 12 samples.

Results

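The sodium pump genes described here are 7 rows of the gene table of this study, chosen by symbol out of 45777 rows. They comprise 3 beta subunit genes of the Na+/K+-ATPase (Atp1b1, Atp1b2 and Atp1b3) and 4 FXYD regulator genes (Fxyd2, Fxyd3, Fxyd4 and Fxyd5). The messenger RNA of mpkCCDc11 cells, a mouse line from the cortical collecting duct of the kidney, was sequenced in 12 libraries, and all 7 genes were among the 15932 that had enough counts to be tested. Per the labels the cells were of WT genotype and had received an siRNA against TAZ, a coactivator of the Hippo pathway encoded by Wwtr1, or a control siRNA. Then came vehicle or 1e-09 M dDAVP, an analogue of vasopressin that acts on its V2 receptor, added to the basolateral side. The 4 groups were TAZ siRNA with dDAVP, TAZ siRNA with vehicle, control siRNA with dDAVP and control siRNA with vehicle, with 3 libraries each. All groups shared the culture on semipermeable filters and a starvation in medium without serum and hormones, after growth in a medium that held dexamethasone, insulin and triiodothyronine. Several exposure times to dDAVP are listed in the labels, none of them tied to these libraries. Nothing there tells whether a group's libraries were grown as separate cultures, and the spread behind each p-value may be that of technical repeats.

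The Na+/K+-ATPase sits in the basolateral membrane of collecting duct cells, where it moves sodium out of the cell and potassium in, and so drives the uptake of sodium through the epithelial sodium channel on the apical side. A catalytic alpha subunit does the transport. A glycosylated beta subunit is needed for the enzyme to fold and to reach the cell surface. A small FXYD protein with a single span of the membrane can join the complex and tune its affinity for sodium, potassium and ATP. Vasopressin acts on these cells through the V2 receptor and cyclic AMP, and raises sodium transport as well as water transport in the collecting duct.

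Libraries held between 45095331 and 61725339 counts. Levels are given as CPM, the counts scaled to the library total, or, where genes are set against each other, as FPKM, which also divides by transcript length. A gene was called when its adjusted p in edgeR's quasi-likelihood test, with Benjamini-Hochberg adjustment over all genes tested, was under 0.05, and log2 fold changes are given ± their standard error. Wwtr1, the targeted gene, was lower with the TAZ siRNA than with the control siRNA by a log2 fold change of -0.54 ± 0.05 with dDAVP (0.686-fold) and -0.63 ± 0.05 with vehicle (0.645-fold). Of 12 markers of principal cells, the dDAVP-responsive cells of the collecting duct, 10 were tested, among them Aqp2, the vasopressin-regulated water channel. Aqp2 averaged 11.0 ± 2.3 CPM with TAZ siRNA and dDAVP and 34.3 ± 8.6 CPM with control siRNA and dDAVP (SD, n = 3 each). It was nearly absent with vehicle, with 9, 0 and 0 counts in the TAZ siRNA libraries and 19, 16 and 20 counts in the control siRNA libraries, so no fold change is given for the TAZ siRNA. With the control siRNA it rose with dDAVP by a log2 fold change of 6.66 ± 0.34 (edgeR adjusted p = 1.23e-07). Of 9 markers of intercalated cells, the acid-base cells of the duct, 3 were tested, namely Atp6v1b1, Car2 and Aqp6. These averaged 100, 70.1 and 27.0 CPM with TAZ siRNA and dDAVP, and 85.7, 57.4 and 11.0 CPM with TAZ siRNA and vehicle. With the control siRNA they averaged 97.4, 86.0 and 36.6 CPM with dDAVP, and 93.5, 58.6 and 17.4 CPM with vehicle. Foxi1, Slc26a4, Atp6v1g3 and Kit had no count in any library. The summed level of the principal cell markers was 2249 to 2373 CPM with TAZ siRNA and dDAVP, 1833 to 2036 CPM with TAZ siRNA and vehicle, 2463 to 2574 CPM with control siRNA and dDAVP, and 1770 to 1879 CPM with control siRNA and vehicle. The 9 intercalated cell markers summed to 188.4 to 203 CPM with TAZ siRNA and dDAVP, 147 to 162.9 CPM with TAZ siRNA and vehicle, 216 to 226.7 CPM with control siRNA and dDAVP, and 162 to 173.6 CPM with control siRNA and vehicle. Both sums were higher with dDAVP, and so were several genes described here. Most of the principal cell sum came from the keratin genes Krt8 and Krt18, which averaged 853 and 916 CPM with TAZ siRNA and dDAVP, 701 and 721 CPM with TAZ siRNA and vehicle, 934 and 1043 CPM with control siRNA and dDAVP, and 641 and 663 CPM with control siRNA and vehicle. Of the 10 principal cell markers tested, 5 were called higher and 1 lower with dDAVP with the TAZ siRNA. The shares of all genes tested were 6.38% higher and 4.41% lower. With the control siRNA 6 of these markers were called higher and 1 lower, against 9.72% and 9.48% of all genes. The marker Scnn1a was lower with both siRNAs. The 9 markers of other nephron segments, 5 of them at 0 in all libraries, summed to 125.5 to 134.9 CPM with TAZ siRNA and dDAVP, 139.4 to 154.1 CPM with TAZ siRNA and vehicle, 151.4 to 166.6 CPM with control siRNA and dDAVP, and 179.2 to 189.3 CPM with control siRNA and vehicle. Nearly all of this sum was the single marker Lrp2. Lrp2 averaged 128 CPM with dDAVP and 146 CPM with vehicle under the TAZ siRNA, and 156 and 183 CPM under the control siRNA. The 7 fibroblast, endothelial and immune markers summed to at most 7.38 CPM in any library, and with the control siRNA to 4.37 to 4.95 CPM with dDAVP and 6.01 to 6.84 CPM with vehicle. The part of these shifts in the results for the pump genes was not tested. In these bulk libraries a change in the number of cells of a type and a change in RNA per cell cannot be told apart.

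3 sequences of the pump genes are given here, and none was used in a test. The first is the coding sequence of Fxyd2 transcript variant b, from GENCODE (build GRCm38, chr9:45403282-45409727, plus strand), with its first coding exon in capitals, because the transcript variants of Fxyd2 differ in their first exons and are given separately. The other 2 are the 250 bases before the start of Atp1b1 (GRCm38.p6, chr1:164458356-164458605, minus strand) and of Fxyd3 (GRCm38.p6, chr7:31076698-31076947, minus strand), from RefSeq, because Atp1b1 rose with dDAVP under both siRNAs and Fxyd3 was the member called higher with the TAZ siRNA. Capitals mark the 2 matches to the GC box letters GGGCGG, read on the other strand, in the sequence of Atp1b1, and the match to the TEAD site letters GGAATG in that of Fxyd3.
Fxyd2 variant b: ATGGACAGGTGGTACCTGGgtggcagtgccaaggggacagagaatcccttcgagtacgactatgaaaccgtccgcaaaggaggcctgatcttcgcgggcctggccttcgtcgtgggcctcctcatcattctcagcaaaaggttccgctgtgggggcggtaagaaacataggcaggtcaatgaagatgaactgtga
Atp1b1 upstream: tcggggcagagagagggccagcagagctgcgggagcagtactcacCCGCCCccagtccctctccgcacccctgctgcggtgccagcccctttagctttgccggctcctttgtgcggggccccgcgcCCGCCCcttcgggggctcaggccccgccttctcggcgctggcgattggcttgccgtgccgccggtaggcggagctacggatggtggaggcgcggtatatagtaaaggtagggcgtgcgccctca
Fxyd3 upstream: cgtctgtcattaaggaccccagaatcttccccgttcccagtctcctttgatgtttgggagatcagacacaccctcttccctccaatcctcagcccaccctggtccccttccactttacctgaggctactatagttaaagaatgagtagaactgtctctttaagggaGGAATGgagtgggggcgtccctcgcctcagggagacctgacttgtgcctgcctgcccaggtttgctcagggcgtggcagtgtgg

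The first question was which of the pump genes responded to dDAVP. With the control siRNA, 3 of the 7 were called higher (Atp1b1, Fxyd2 and Fxyd3) and no member was called lower, against 9.72% of all genes tested called higher and 9.48% called lower. With the TAZ siRNA, 2 of the 7 were called higher (Atp1b1 and Fxyd2), against 6.38% of genes higher and 4.41% lower. The main beta subunit gene and the main FXYD gene of these cells thus rose with dDAVP under both siRNAs. The median log2 fold change of the 7 genes was 0.08 with the TAZ siRNA and 0.09 with the control siRNA, while that of all genes tested was -0.00085 and -0.0013.

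**Figure D1:**
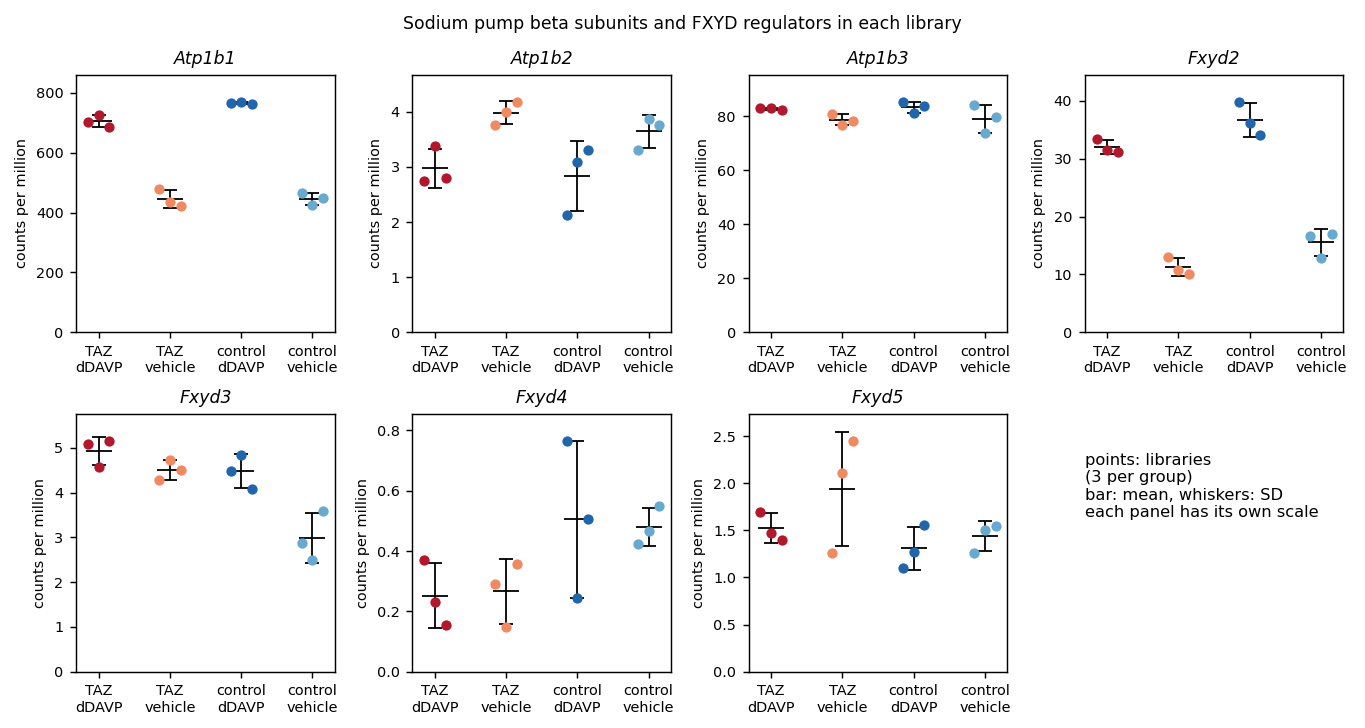
CPM of the 7 genes in each library. Points are libraries, the horizontal bar is the mean and the whiskers the SD of 3 libraries, and each panel has its own scale that starts at 0. The dDAVP libraries of Atp1b1 (686 to 769 CPM) and of Fxyd2 (31.2 to 39.8 CPM) all lie above the vehicle libraries, and the control siRNA libraries with vehicle lie lowest for Fxyd3.

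Among the beta subunits, Atp1b1 encodes beta-1, the main beta subunit of kidney epithelia, and is a single transcript model at chr1:164437099-164458355 (mm10). Its level was 702, 726 and 686 CPM with TAZ siRNA and dDAVP, 479, 434 and 422 CPM with TAZ siRNA and vehicle, 764, 769 and 762 CPM with control siRNA and dDAVP, and 464, 425 and 450 CPM with control siRNA and vehicle. The dDAVP libraries were all above the vehicle libraries, and those with the control siRNA all above those with the TAZ siRNA, while the vehicle libraries of the 2 siRNAs overlapped. The response to dDAVP was a log2 fold change of 0.67 ± 0.04 with the TAZ siRNA (1.6-fold, edgeR adjusted p = 1.27e-08) and 0.79 ± 0.04 with the control siRNA (1.73-fold, edgeR adjusted p = 7.92e-10). The difference between these responses was -0.12 ± 0.06 (edgeR adjusted p = 0.661), with a 95% interval from -0.24 to 0.01.

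Effects of the TAZ siRNA on Atp1b1 were -0.13 ± 0.04 with dDAVP (edgeR adjusted p = 0.0643) and -0.02 ± 0.04 with vehicle (edgeR adjusted p = 0.882). The first of these passed the threshold in a fit of the dDAVP groups alone (adjusted p = 0.0141), in DESeq2 (0.0272), without the filter on low counts (0.0476), with the replicate number as a block (0.0499) and without TAZ siRNA, dDAVP replicate 2 (0.043). Over all its alternatives the adjusted p of Atp1b1 in the dDAVP groups ran from 0.0141 to 0.224 and the log2 fold change from -0.16 to -0.11. Nme7, a nucleoside diphosphate kinase family gene on the plus strand, stops at chr1:164437300 and so runs over the last bases of Atp1b1, which is read from the minus strand. Whether counting used the strand was not given in the sources used here; without strand, reads of that overlap cannot be told apart. Nme7 itself was at 28 to 34.3 CPM in all libraries and was called in none of the comparisons.

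Atp1b3 encodes beta-3, a subunit found in many tissues. It lies at chr9:96332655-96364431 (mm10) with 7 transcript models, and NM_007502 held between 95.8% and 97.8% of its FPKM on average in each group. Its level was 82.9, 83.0 and 82.2 CPM with TAZ siRNA and dDAVP, 80.9, 76.8 and 78.2 CPM with TAZ siRNA and vehicle, 85.1, 81.2 and 83.6 CPM with control siRNA and dDAVP, and 83.9, 73.7 and 79.5 CPM with control siRNA and vehicle. The 4 groups lay within a narrow band. With the TAZ siRNA all dDAVP libraries were above all vehicle libraries, and with the control siRNA the treatments overlapped. Neither response to dDAVP passed the threshold, at 0.08 ± 0.04 with the TAZ siRNA (edgeR adjusted p = 0.241) and 0.09 ± 0.04 with the control siRNA (edgeR adjusted p = 0.169). The 95% interval of the response with the control siRNA, built from the normal distribution, ran from 0.01 to 0.17. The unadjusted p of this response in edgeR was 0.0519, above 0.05, although the interval leaves out 0. Without control siRNA, vehicle replicate 1 the adjusted p of this response in edgeR was 0.0458.

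Atp1b2 encodes beta-2, known as an adhesion molecule on glia, and lies at chr11:69599728-69605978 (mm10). Its level was low, at 2.74, 3.38 and 2.79 CPM with TAZ siRNA and dDAVP, 3.76, 4.0 and 4.17 CPM with TAZ siRNA and vehicle, 2.12, 3.09 and 3.31 CPM with control siRNA and dDAVP, and 3.31, 3.87 and 3.76 CPM with control siRNA and vehicle. With the TAZ siRNA the dDAVP libraries were all below the vehicle libraries, and with the control siRNA the treatments overlapped, each having a library at 3.31 CPM. The log2 fold changes with dDAVP were -0.41 ± 0.15 with the TAZ siRNA (edgeR adjusted p = 0.089) and -0.35 ± 0.15 with the control siRNA (edgeR adjusted p = 0.121). Neither passed the threshold. Atp1b4, whose product has lost its role in the pump in placental mammals, had no count in any library, where 3 counts stand for 0.0486 to 0.0665 CPM.

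Per transcript length, Atp1b1 was the most abundant beta subunit gene in every library. It averaged 249 ± 12 FPKM with TAZ siRNA and dDAVP, 158 ± 11 FPKM with TAZ siRNA and vehicle, 274.2 ± 1.7 FPKM with control siRNA and dDAVP, and 159 ± 7.2 FPKM with control siRNA and vehicle (SD, n = 3 each). Its share of the summed FPKM of the 3 beta subunit genes was 86.5% ± 0.3 with TAZ siRNA and dDAVP, 80.8% ± 0.66 with TAZ siRNA and vehicle, 87.4% ± 0.25 with control siRNA and dDAVP, and 80.8% ± 0.25 with control siRNA and vehicle (SD, n = 3 each). The lowest share in a dDAVP library was 86.2% and the highest in a vehicle library 81.5%. Most of the remainder was Atp1b3, at 13.2% with TAZ siRNA and dDAVP, 18.6% with TAZ siRNA and vehicle, 12.4% with control siRNA and dDAVP, and 18.6% with control siRNA and vehicle on average.

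**Figure D2:**
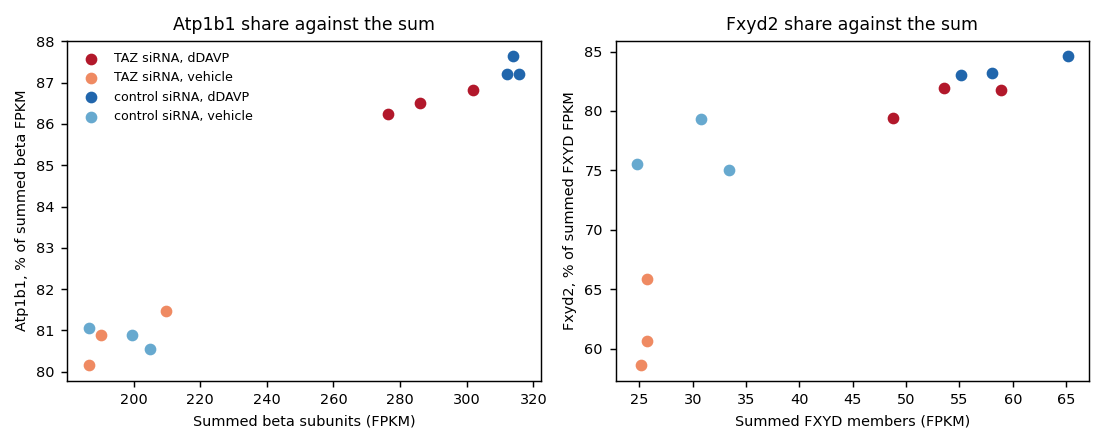
Left, the share of Atp1b1 in the summed FPKM of the 3 beta subunit genes (%) against that sum, and right, the share of Fxyd2 in the summed FPKM of the 4 FXYD genes (%) against that sum, with 1 point per library and axes that do not start at 0. The dDAVP libraries of both siRNAs lie at the upper right for Atp1b1, and the TAZ siRNA libraries with vehicle have the lowest Fxyd2 shares (58.6% to 65.8%).

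Of the FXYD genes, Fxyd2 encodes the gamma subunit, the FXYD protein first found with the renal pump, which lowers its affinity for sodium. It lies at chr9:45399709-45410278 (mm10). Its level was 33.4, 31.5 and 31.2 CPM with TAZ siRNA and dDAVP, 13.0, 10.8 and 10.1 CPM with TAZ siRNA and vehicle, 39.8, 36.1 and 34.1 CPM with control siRNA and dDAVP, and 16.7, 12.8 and 17.1 CPM with control siRNA and vehicle. Every dDAVP library was above every vehicle library. The response to dDAVP was a log2 fold change of 1.51 ± 0.10 with the TAZ siRNA (2.86-fold, edgeR adjusted p = 5.55e-08) and 1.25 ± 0.10 with the control siRNA (2.37-fold, edgeR adjusted p = 2.2e-07), the largest change among the 7 genes under either siRNA. The responses differed by 0.27 ± 0.14 (95% interval from -0.01 to 0.55, edgeR adjusted p = 0.656).

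The second question was whether the TAZ siRNA changed the pump genes. With vehicle 1 of the 7 was called higher (Fxyd3) and 1 lower (Fxyd2), against 3.19% of all genes higher and 3.11% lower. With dDAVP edgeR called 0 of the 7, against 5.77% of all genes higher and 4.97% lower, while 3 members had an unadjusted p under 0.05 (Atp1b1, Fxyd2 and Fxyd4), DESeq2 called 1 and limma-voom 0. These comparisons share libraries with the dDAVP responses, so the values of a gene across them are not independent.

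With vehicle, Fxyd2 was lower with the TAZ siRNA than with the control siRNA by a log2 fold change of -0.48 ± 0.11 (0.718-fold, edgeR adjusted p = 0.0137). The groups overlapped, since control siRNA, vehicle replicate 2 (12.8 CPM) lay below TAZ siRNA, vehicle replicate 1 (13.0 CPM). It no longer passed without TAZ siRNA, vehicle replicate 2 (adjusted p = 0.0675) or replicate 3 (0.0604), or without control siRNA, vehicle replicate 1 (0.0685) or replicate 3 (0.0618), and the log2 fold change over all its alternatives ran from -0.60 to -0.40. With dDAVP, every TAZ siRNA library lay below every control siRNA library, at -0.21 ± 0.10 (edgeR adjusted p = 0.193), and passed in a fit of those groups alone (0.0365).

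Transcript models of Fxyd2 end at the same base and start at different places, as the sequence of variant b above shows for its first coding exon. Its 19 capital bases (chr9:45403282-45403300) lie before the start of variant a (NM_007503), which begins 2939 bases downstream of variant b (NM_052823), so no read of that exon can come from variant a. A model named X1 (XM_030244032) begins before both. The method by which reads of shared exons were divided among these models was not given in the sources used here. Shares of a model are therefore estimates.

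Variant b was the main form, with 1943, 1230 and 923 estimated counts for Fxyd2 NM_052823 with TAZ siRNA and dDAVP, 564, 637 and 610 with TAZ siRNA and vehicle, 1466, 1485 and 1045 with control siRNA and dDAVP, and 927, 594 and 950 with control siRNA and vehicle. Variant a was rare except in 1 group. Fxyd2 NM_007503 had 32, 47 and 40 estimated counts with TAZ siRNA and dDAVP, 24, 12 and 12 with TAZ siRNA and vehicle, 404, 211 and 363 with control siRNA and dDAVP, and 19, 10 and 35 with control siRNA and vehicle. All control siRNA libraries with dDAVP were above all other libraries. As a share of the FPKM of Fxyd2, variant a made up 3.08% ± 1.1 with TAZ siRNA and dDAVP, 2.58% ± 1.0 with TAZ siRNA and vehicle, 18.7% ± 6.2 with control siRNA and dDAVP, and 2.66% ± 1.2 with control siRNA and vehicle (SD, n = 3 each).

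**Figure D3:**
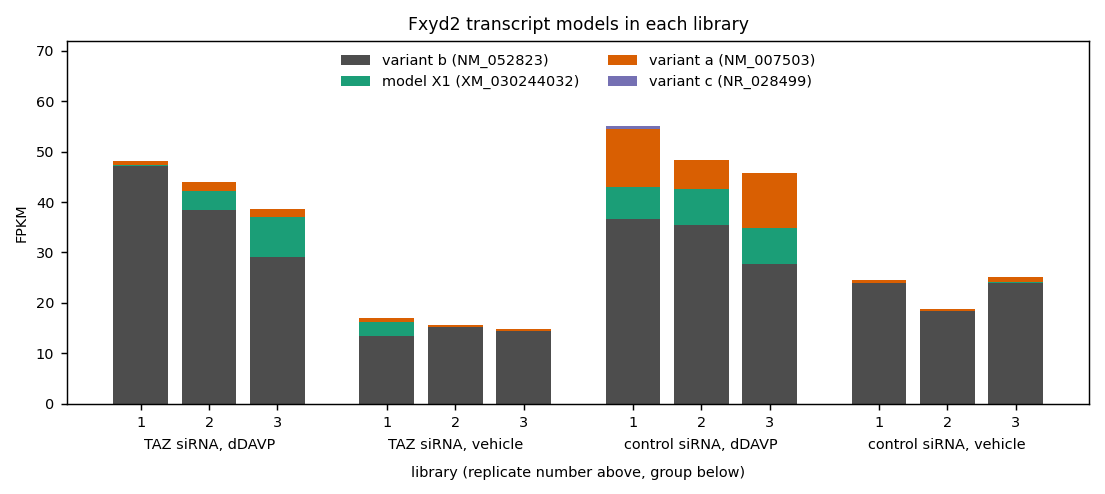
FPKM of the 4 transcript models of Fxyd2 in each library, stacked, with the replicate number below each bar. Variant a reaches 5.67 to 11.4 FPKM in the control siRNA libraries with dDAVP and is below 2 FPKM in all other libraries, and model X1 is uneven within the TAZ siRNA groups.

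In an edgeR fit over all 53174 transcripts tested, chosen after the shares were seen, variant a rose with dDAVP with the control siRNA by a log2 fold change of 3.87 ± 0.56 (adjusted p = 0.018), where 0.512% of transcripts were called. With the TAZ siRNA its change was 1.62 ± 0.52 (edgeR adjusted p = 0.553), where 0.244% were called, and the difference between the responses of Fxyd2 NM_007503 was -2.25 ± 0.72 (edgeR adjusted p = 0.949), in a comparison with 0.00376% of transcripts called. With dDAVP, the TAZ siRNA effect on variant a was -2.82 ± 0.54 and did not pass (edgeR adjusted p = 0.16). The rise of variant a with dDAVP under the control siRNA did not pass with the replicate number as a block (0.0599), nor without control siRNA, dDAVP replicate 1 (0.0726) or 3 (0.0692), or control siRNA, vehicle replicate 1 (0.104) or 2 (0.0825). The log2 fold changes of variant b were 1.43 ± 0.20 with the TAZ siRNA (edgeR adjusted p = 0.0239) and 0.59 ± 0.20 with the control siRNA (edgeR adjusted p = 0.46), and the difference of its responses was 0.83 ± 0.28 (edgeR adjusted p = 0.957). The call of Fxyd2 NM_052823 was lost with the block (0.0962) and in 5 of 6 fits without 1 library of the TAZ siRNA groups, namely dDAVP replicate 1 (0.0662) or 2 (0.0932) and vehicle replicate 1 (0.115), 2 (0.112) or 3 (0.123).

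Model X1 was spread unevenly. Fxyd2 XM_030244032 had 8, 215 and 438 estimated counts with TAZ siRNA and dDAVP, 214, 5 and 0 with TAZ siRNA and vehicle, 441, 525 and 474 with control siRNA and dDAVP, and 0, 0 and 9 with control siRNA and vehicle. The control siRNA groups did not overlap and the TAZ siRNA groups did. None of its changes passed the threshold in that fit (lowest edgeR adjusted p = 0.523). The remaining model, variant c (NR_028499), had at most 32 counts in a library.

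Fxyd3 encodes a FXYD protein also called Mat-8, found in several epithelia and raised in some tumours, and lies at chr7:31070535-31076697 (mm10) as 1 transcript model. Its level was 5.08, 4.58 and 5.14 CPM with TAZ siRNA and dDAVP, 4.29, 4.73 and 4.51 CPM with TAZ siRNA and vehicle, 4.50, 4.84 and 4.09 CPM with control siRNA and dDAVP, and 2.88, 2.49 and 3.59 CPM with control siRNA and vehicle. The control siRNA libraries with vehicle were below all others, and the other groups overlapped. With dDAVP it rose by 0.59 ± 0.13 with the control siRNA (1.51-fold, edgeR adjusted p = 0.00263), while with the TAZ siRNA the change was 0.14 ± 0.12 (95% interval from -0.10 to 0.38, edgeR adjusted p = 0.534). The difference between these responses was -0.45 ± 0.17 and did not pass (unadjusted p = 0.0194, edgeR adjusted p = 0.5).

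With vehicle, Fxyd3 was higher with the TAZ siRNA than with the control siRNA by a log2 fold change of 0.58 ± 0.13 (1.49-fold, edgeR adjusted p = 0.0105), with no overlap of the libraries. In the fit over all transcripts, NM_008557, the transcript model of Fxyd3, did not pass for dDAVP with control siRNA (0.59 ± 0.21, edgeR adjusted p = 0.523) or for the TAZ siRNA with vehicle (0.58 ± 0.21, edgeR adjusted p = 0.824). The call at gene level with vehicle did not hold without TAZ siRNA, vehicle replicate 2 (0.0585 in edgeR) or without control siRNA, vehicle replicate 1 (0.0537). With dDAVP the effect on Fxyd3 was 0.12 ± 0.12 (edgeR adjusted p = 0.581). Fxyd3 is read from the minus strand, and its end lies inside Lgi4, a gene for a secreted leucine-rich repeat protein that runs to chr7:31070935 on the plus strand. Lgi4 was at most at 0.543 CPM in any library and was called in none of the comparisons.

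Fxyd5 encodes dysadherin, a FXYD protein with a long extracellular part that affects cell adhesion as well as the pump, and lies at chr7:31032723-31042331 (mm10). Its level was 1.70, 1.48 and 1.40 CPM with TAZ siRNA and dDAVP, 1.26, 2.11 and 2.44 CPM with TAZ siRNA and vehicle, 1.10, 1.27 and 1.56 CPM with control siRNA and dDAVP, and 1.25, 1.51 and 1.55 CPM with control siRNA and vehicle. All groups overlapped. With vehicle the TAZ siRNA effect was 0.42 ± 0.21 (edgeR adjusted p = 0.284), and without TAZ siRNA, vehicle replicate 1 it was 0.64 (0.0373). The responses of Fxyd5 to dDAVP were -0.33 ± 0.21 with the TAZ siRNA (edgeR adjusted p = 0.377) and -0.12 ± 0.22 with the control siRNA (edgeR adjusted p = 0.765).

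Fxyd4 encodes CHIF, a FXYD protein known from the collecting duct of the kidney and from the colon that raises the affinity of the pump for sodium, and lies at chr6:117933558-117937714 (mm10). It was close to the limit of these libraries, with 22, 11 and 7 counts with TAZ siRNA and dDAVP, 18, 9 and 22 counts with TAZ siRNA and vehicle, 45, 15 and 28 counts with control siRNA and dDAVP, and 24, 22 and 32 counts with control siRNA and vehicle. Scaled to depth, the vehicle libraries of the TAZ siRNA were at 0.148 to 0.358 CPM and those of the control siRNA at 0.424 to 0.55 CPM, without overlap, whereas the dDAVP libraries overlapped. The TAZ siRNA effects were -0.97 ± 0.45 with dDAVP (edgeR adjusted p = 0.192) and -0.86 ± 0.44 with vehicle (edgeR adjusted p = 0.291), and neither passed. With the TAZ siRNA the 95% interval of the response of Fxyd4 to dDAVP ran from -0.97 to 0.90. With the control siRNA it ran from -0.73 to 0.89. Changes of either sign within these limits are compatible with the data.

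**Figure D4:**
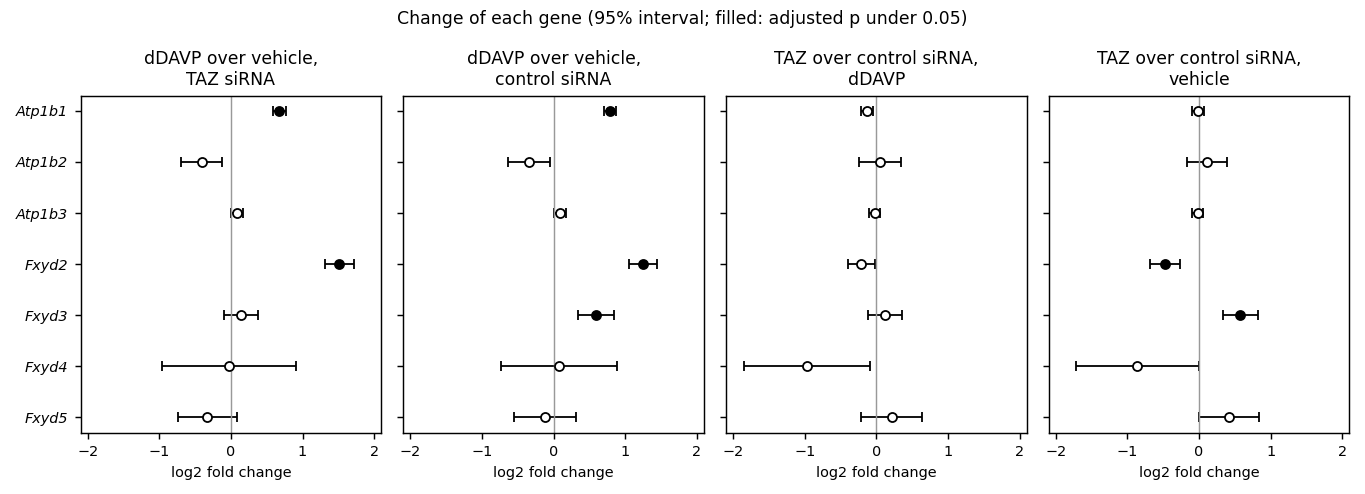
Log2 fold changes of the 7 genes in 4 comparisons, with the groups compared named above each panel. Bars are 95% intervals built from the normal distribution, and filled points have an edgeR adjusted p under 0.05. Atp1b1 and Fxyd2 are filled and to the right of 0 in both dDAVP panels, Fxyd3 in the dDAVP panel with control siRNA and in the vehicle panel, and Fxyd2 lies to the left in the vehicle panel.

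Per transcript length, Fxyd2 was the most abundant of the 4 FXYD genes in every library, and Fxyd3 was next. The share of Fxyd2 in their summed FPKM was 81% ± 1.4 with TAZ siRNA and dDAVP, 61.7% ± 3.7 with TAZ siRNA and vehicle, 83.6% ± 0.88 with control siRNA and dDAVP, and 76.7% ± 2.4 with control siRNA and vehicle (SD, n = 3 each). The share of Fxyd3 was 16.1% ± 1.7 with TAZ siRNA and dDAVP, 31% ± 1.3 with TAZ siRNA and vehicle, 13.4% ± 1.3 with control siRNA and dDAVP, and 17.7% ± 1.3 with control siRNA and vehicle. The TAZ siRNA libraries with vehicle thus held the lowest Fxyd2 shares and the highest Fxyd3 shares. The summed FPKM of the 4 FXYD genes was 53.7 ± 5.1 with TAZ siRNA and dDAVP, 25.5 ± 0.32 with TAZ siRNA and vehicle, 59.5 ± 5.1 with control siRNA and dDAVP, and 29.7 ± 4.4 with control siRNA and vehicle.

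The third question was whether the response to dDAVP depended on the siRNA. Of all genes tested, 0.0126% were called for a higher and 0.0188% for a lower response with the TAZ siRNA than with the control siRNA. In edgeR 0 of the 7 members were called, 1 had an unadjusted p under 0.05 (Fxyd3), and DESeq2 and limma-voom called 0. A p that misses the threshold leaves the size of a difference to its interval, which for Fxyd3 ran from -0.79 to -0.11. Fxyd3 is singled out here by its unadjusted p, and the interval carries no adjustment for that choice. The intervals of the other members all included 0.

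Fxyd6, another FXYD gene that was not among the 7, is the neighbour of Fxyd2 at chr9:45369470-45396159 and ends 3549 bases before the first start of Fxyd2. Its level was 1.01, 0.781 and 1.55 CPM with TAZ siRNA and dDAVP, 0.599, 0.527 and 0.326 CPM with TAZ siRNA and vehicle, 1.65, 2.23 and 1.76 CPM with control siRNA and dDAVP, and 0.689, 0.595 and 0.893 CPM with control siRNA and vehicle. Like Fxyd2 it rose with dDAVP, by 1.20 ± 0.28 with the TAZ siRNA (edgeR adjusted p = 0.00882) and 1.37 ± 0.26 with the control siRNA (edgeR adjusted p = 0.000944). Its TAZ siRNA effects were -0.78 ± 0.25 with dDAVP (edgeR adjusted p = 0.055) and -0.60 ± 0.29 with vehicle (edgeR adjusted p = 0.26). Fxyd1, which encodes phospholemman of heart and muscle, had at most 4 counts in a library, and Fxyd7, a brain form, had none.

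By pattern over the 12 libraries, measured as the root mean square difference of log2 CPM after centring each gene on its mean, the genes closest to Atp1b1 were Chp1 (0.0622), which encodes a calcium-binding partner of sodium-proton exchangers, and Sgk2 (0.0662), which encodes a kinase related to Sgk1. Chp1 averaged 137 CPM with TAZ siRNA and dDAVP, 81.7 CPM with TAZ siRNA and vehicle, 153 CPM with control siRNA and dDAVP, and 86.0 CPM with control siRNA and vehicle. The closest to Fxyd2 were Atp6v0a4 (0.161), which encodes a subunit of the vacuolar proton pump, and Arl4d (0.184), which encodes a small GTPase. For Fxyd3 they were Nqo1 (0.138), which encodes a quinone reductase, and Gsto1 (0.155), which encodes a glutathione transferase. These likenesses describe the libraries and carry no test.

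Promoter windows of 300 bases, from 250 before to 50 after a start, were found in the RefSeq table for 5 of the 7 genes. Fxyd2 and Atp1b2 had no window there, so the motifs near their starts were not searched. They were searched for short motifs on both strands. The window of Fxyd4 (chr6:117937286-117937585) was set on the start of NM_001173372 and NM_033648. It lies inside the gene as located above, since other models of Fxyd4 start further upstream. Atp1b3 had a further window at chr9:96363666-96363965, and a match in either of its windows is given as found for Atp1b3. The GC box was the one motif found in the window of Atp1b1, at -205 and -124 from its start. It was also found for Fxyd4 (at -48) and for Atp1b3 (6 matches in the window at chr9:96364382-96364681), and 35.7% of all 32851 windows hold one. The half-site GTTAAT of HNF1 factors was found for Atp1b3 alone of the 5, in its further window only (7.1% of all). The TEAD site letters, the motif of the partners through which TAZ binds DNA, occurred once each for Fxyd3 (at -84) and Fxyd4 (at -198), and in 14.7% of all windows. The full cAMP response element TGACGTCA was in none of the 5 genes' windows and in 1.79% of all, and its short form TGACG was found for Atp1b3 alone of the 5 (20.8% of all). The E box CANNTG was found for Fxyd4, Fxyd5 and Atp1b3 (72.3% of all), and the AP-1 site TGANTCA (7.81%) and the glucocorticoid receptor motif TGTTCT (19%) for none of the 5. TGACG lies within the full element, and the other motifs were searched independently of each other. These are matches of letters in a short window and describe no binding.

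Genes around the pump were followed in lists by role. Of 16 genes for membrane anchoring and assembly of the pump 14 were tested, and with dDAVP 5 were higher with the TAZ siRNA (against 6.38% of all genes), and 5 higher and 2 lower with the control siRNA (against 9.72% and 9.48%). Their median log2 fold change was 0.0068 and -0.0025, close to that of all genes. Sik1, a salt-inducible kinase that raises pump activity, rose by 0.89 ± 0.05 with the TAZ siRNA and 1.09 ± 0.05 with the control siRNA. Add3, which encodes an adducin of the spectrin skeleton, rose by 0.79 ± 0.06 with the TAZ siRNA and 0.90 ± 0.06 with the control siRNA. Sptan1, the gene for the alpha chain of spectrin, rose by 0.26 ± 0.03 with the TAZ siRNA and 0.30 ± 0.03 with the control siRNA. Each of these 3 genes had an edgeR adjusted p of 4.9e-06 or lower in both responses. The 2 lower genes, named after their values were seen, were Wfs1 (-0.18 ± 0.04, edgeR adjusted p = 0.00557) and Nkain1 (-0.28 ± 0.09, edgeR adjusted p = 0.0421).

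The TAZ siRNA was then set against the control siRNA, within the dDAVP groups or within the vehicle groups. Of those 14 genes, 2 were higher and 3 lower with the TAZ siRNA among the dDAVP groups (against 5.77% and 4.97% of all genes). Among the vehicle groups 1 was higher and 1 lower (against 3.19% and 3.11%). Add3 was lower with the TAZ siRNA by -0.51 ± 0.06 among the dDAVP groups and -0.39 ± 0.06 among the vehicle groups (edgeR adjusted p = 2.15e-05 and 0.000622). In the same comparisons Atp1b1 was at -0.13 ± 0.04 and -0.02 ± 0.04 and did not pass (edgeR adjusted p = 0.0643 and 0.882). No test set the 2 genes against each other. Wfs1, which encodes wolframin, an endoplasmic reticulum protein that binds the beta-1 subunit, was higher by 0.39 ± 0.04 with dDAVP and 0.20 ± 0.04 with vehicle. Nkain2, for a small protein that binds the same subunit, was called higher among the dDAVP groups at 1.89 ± 0.56 (edgeR adjusted p = 0.0394). Its counts there were 9, 15 and 18 with the TAZ siRNA and 6, 3 and 4 with the control siRNA. Sik1, which rose with dDAVP under both siRNAs, was lower with the TAZ siRNA among the dDAVP groups by -0.16 ± 0.04 (edgeR adjusted p = 0.0289).

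On the way of sodium into the cell and of potassium or chloride out of it, 10 of 12 listed genes were tested. With dDAVP 1 was higher and 1 lower with the TAZ siRNA (against 6.38% and 4.41% of all genes), and 3 were higher and 1 lower with the control siRNA (against 9.72% and 9.48%), with a median of 0.12 and 0.13. Scnn1a, which encodes the alpha chain of the channel through which sodium enters, had log2 fold changes of -0.27 ± 0.03 with the TAZ siRNA and -0.51 ± 0.03 with the control siRNA and thus fell, opposite in sign to Atp1b1. Kcnq1, for a potassium channel, rose by 0.54 ± 0.06 with the TAZ siRNA and 0.47 ± 0.06 with the control siRNA. Kcnj16, for a basolateral potassium channel subunit, rose by 0.38 ± 0.10 with the control siRNA, and Slc12a2, for the sodium-potassium-chloride cotransporter, by 0.17 ± 0.05. Against the control siRNA, the TAZ siRNA came with higher Scnn1a (0.34 ± 0.03) and lower Slc12a2 (-0.22 ± 0.05) among the dDAVP groups. Among the vehicle groups Kcnj16 was higher with the TAZ siRNA than with the control siRNA (0.45 ± 0.10).

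In the list of corticosteroid signalling to sodium transport, with all 10 genes tested, 1 was higher with dDAVP with the TAZ siRNA (against 6.38% of all genes) and 3 with the control siRNA (against 9.72%), with a median of 0.11 under both siRNAs. A count of 1 in 10 is near the share of all genes. Nedd4l, the ubiquitin ligase of the epithelial sodium channel, rose by 0.35 ± 0.04 with the TAZ siRNA and 0.39 ± 0.04 with the control siRNA. Usp2, a deubiquitinase, and Per1, a clock gene, rose with the control siRNA by 0.45 ± 0.08 and 0.25 ± 0.05. Compared with the control siRNA, Usp2 was lower with the TAZ siRNA among the dDAVP groups (-0.27 ± 0.08). Per1 was higher with the TAZ siRNA among the vehicle groups (0.17 ± 0.05).

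Related P-type ATPase genes gave 5 tested of 6. Atp4a, the gastric proton pump alpha subunit, was called higher with dDAVP with the control siRNA at 2.09 ± 0.58 (edgeR adjusted p = 0.0168) on 36, 31 and 21 counts with dDAVP and 0, 4 and 15 counts with vehicle. Atp2b1, a calcium pump of the plasma membrane, was lower with the TAZ siRNA than with the control siRNA. The change was -0.32 ± 0.05 among the dDAVP groups and -0.22 ± 0.05 among the vehicle groups. Of 3 genes for partners of dysadherin 2 were tested, and Ctnnb1, for beta-catenin, rose with dDAVP by 0.14 ± 0.04 with the TAZ siRNA and 0.16 ± 0.04 with the control siRNA.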

How the data were processed

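RNA was sequenced in 12 libraries of a mouse cell line, and the labels name a TruSeq Stranded mRNA kit beside another TruSeq RNA kit. Bowtie 0.12.2 and the builds mm8 and mm10 appear, with no role, in the submitters' processing notes. These and the labels do not say which was used for what, and name no counting tool. The authors deposited an estimated count, written as a whole number, for each gene and transcript, and an FPKM value for each, per the file headers. The tables' other per-sample values, in 24 columns, were left aside. Coordinates are those of the deposited transcript table (mm10), and were equal to those of the RefSeq table for GRCm38.p6 for the genes checked. How reads of similar or overlapping genes were divided is not stated, which bears on the transcript shares.

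Tests of the counts used edgeR 4.0.16 under R 4.3.3. Of 45777 genes, 15932 passed the filter (filterByExpr, minimum count 10), and the tested genes held 99.98% of all counts. TMM factors lay between 0.988 and 1.01. The robust quasi-likelihood model had a mean for each group, over all 12 libraries, with 5 contrasts and Benjamini-Hochberg adjustment over all genes tested. Standard errors were obtained as the log2 fold change over the root of F. The 95% intervals used the quantile of the normal distribution, so they are narrower than the F test implies. The coefficient of biological variation was 5.11%. Libraries of 1 group differed by more than sampling noise (chi-square over degrees of freedom 4.25 to 13.5 for each pair). The tests were tested on simulated data. Alternatives were DESeq2 1.42.0, limma-voom (limma 3.58.1), DESeq2 size factors in edgeR, no filter, a fit of the compared groups only, a block by replicate number and each library left out in turn. The fit over transcripts was added after seeing the data. A count of 3 in a library stands for 0.0486 to 0.0665 CPM and covers counting error only.

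The members and lists were chosen with earlier results of these data known. Named were the 7 members, other beta subunit and FXYD genes, Wwtr1 and Aqp2 as checks, per list and comparison up to 4 called genes with the largest change, and the 2 genes closest in pattern to each called member. Genes that overlap a member on the other strand were added. The alpha subunit genes and some genes of the lists are not reported here. The design had assumed counts, and the values are estimated counts that needed no rounding.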

Additional observations from a re-analysis of the deposited data

How the results depend on the processing

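The dDAVP calls of Atp1b1 and Fxyd2 under both siRNAs, and that of Fxyd3 with the control siRNA, held in every alternative run at gene level. In the fit over transcripts Fxyd3 did not pass (adjusted p = 0.523). The replicate numbers did not pair the libraries (correlations of same-numbered deviations from -0.043 to 0.0732), and with the replicate number as a block edgeR called 2983 genes for dDAVP with control siRNA, 1663 for dDAVP with TAZ siRNA, 968 for TAZ siRNA with vehicle, 1690 for TAZ siRNA with dDAVP and 6 for the difference of responses. For the TAZ siRNA effect with dDAVP the members called were 1 without the low-count filter, 1 in DESeq2, 1 with the replicate block and 2 when only the compared groups were fitted, against 0 in edgeR with all groups. The genes called for the difference of responses were 12 without the filter and 87 in DESeq2, against 5. Without the filter the calls split into 809 higher and 854 lower (1016 and 703 with it) for dDAVP with TAZ siRNA, and into 675 higher and 857 lower (919 and 792) for TAZ siRNA with dDAVP. In limma-voom the sign of Fxyd4 turned, to -0.0692 for dDAVP with control siRNA and to 0.0609 for the difference of responses. The cause of these shifts was not tested.

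With 1 library left out, the genes called for dDAVP with control siRNA ran from 2103 to 2685 and the members from 3 to 4. For dDAVP with TAZ siRNA they ran from 1118 (without TAZ siRNA, vehicle replicate 2) to 1752, with 2 members in each fit. For TAZ siRNA with vehicle they ran from 410 to 1435 (504 and 578 without control siRNA replicate 1 or 3, 410 and 511 without TAZ siRNA replicate 2 or 3) and the members from 0 to 3. For TAZ siRNA with dDAVP they ran from 1049 to 1625 (1114 and 1049 without control siRNA replicate 2 or 3, 1054 and 1110 without TAZ siRNA replicate 1 or 3) and the members from 0 to 1. For the difference of responses they ran from 3 to 16 (16 without TAZ siRNA, vehicle replicate 1, 10 without control siRNA, vehicle replicate 1, control siRNA, dDAVP replicate 1 or TAZ siRNA, dDAVP replicate 2, and 3 without control siRNA, vehicle replicate 3, control siRNA, dDAVP replicate 3 or TAZ siRNA, dDAVP replicate 1), with 0 members. Log2 fold changes near 0 turned sign in some of these fits. Fxyd4 ran from -0.36 to 0.41 for dDAVP with control siRNA, from -0.44 to 0.23 for dDAVP with TAZ siRNA and from -0.52 to 0.32 for the difference. Atp1b1 ran from -0.0846 to 0.0162 and Atp1b3 from -0.0691 to 0.0260 for TAZ siRNA with vehicle. Atp1b2 ran from -0.13 to 0.16 for TAZ siRNA with dDAVP and from -0.24 to 0.0522 for the difference, and Atp1b3 from -0.0513 to 0.0436 for the difference.

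Fxyd4 had 7 to 45 counts a library, which limits its precision. Shares of counts in place of FPKM gave model X1 of Fxyd2 22.6% in place of 14.1% with control siRNA and dDAVP. Levels per length from the longest transcript model in place of FPKM moved beyond 1 SD in 16 of 28 member and group means. Atp1b3 was then at 18.1 to 19.2 in place of 36.3 to 38.9 over the groups, and Fxyd2 at 10.3 to 33.4 in place of 15.8 to 49.7. Atp1b1 remained the highest beta gene and Fxyd2 the highest FXYD gene in each group mean, Fxyd2 by little with TAZ siRNA and vehicle (10.3, and 8.61 for Fxyd3).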
